A study of Mus musculus with 4 samples.

Results

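Chromatin accessibility around 10 genes of the adipocyte fate, *Pparg*, *Cebpa*, *Cebpb*, *Cebpd*, *Zfp423*, *Fabp4*, *Lpl*, *Plin1*, *Adipoq* and *Lepr*, was examined in osteoblasts of WT and TCKO mice. The genes are given by name and the regions by position, and the rule itself uses no count or ratio. A region belonged to the set when it overlapped 1 of these genes, or the 25 kb on either side of it, in the GENCODE M21 annotation of the mouse genome build GRCm38. This gave 183 of the 255864 regions in the count table, with 7 regions at *Cebpd* and 75 at *Zfp423*, the longest of the 10 genes. Accessibility was measured by ATAC-seq, in which the Tn5 transposase cuts and tags open DNA so that the reads of a region count how often it was reached. The labels list 4 samples of primary osteoblasts from 3-day-old C57BL/6 mice, 2 from wild type animals (WT) and 2 from TCKO animals. TCKO animals carried Prx1-Cre together with the floxed alleles Tet1fl/fl, Tet2fl/fl and Tet3fl/fl, and whether WT animals carried floxed alleles was not given in the labels. Prx1-Cre acts in limb and skull mesenchyme, the osteoblasts were released from calvarial bone by enzymes with no sort described, and cells in which the Cre was not active can be part of either preparation.

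Replicates had been merged into 1 column of counts per genotype, and a protocol text of the labels names 3 repeats where the list has 2 samples. The spread between animals could therefore not be measured, no test of genotype was possible, and every difference below compares 2 merged libraries. The WT column summed to 56898657 counts and the TCKO column to 34608167, and TCKO counts were multiplied by 1.64 to bring both to the WT total. Each ratio is given on the log2 scale, TCKO over WT with 1 count added to either side. A value below 0 is lower accessibility in TCKO relative to the sum over all regions. A change shared by all regions would not show under this scaling. The ranges in brackets are 95% limits (Wilson) on the part of a region's reads that came from TCKO, turned into ratios. They cover counting error only and not the spread between animals. The reads carry no molecular identifiers and duplicate removal was not given, so copied reads could make these limits too narrow. In such bulk samples, fewer cells of a type and less accessible chromatin per cell cannot be told apart.

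Adipocytes and osteoblasts arise from the same mesenchymal progenitors. C/EBPβ and C/EBPδ act early in adipocyte differentiation and are followed by PPARγ and C/EBPα, which maintain each other and switch on the genes of lipid storage, while the zinc finger protein ZFP423 commits progenitors to the preadipocyte state. FABP4, lipoprotein lipase, perilipin 1 and adiponectin are made by the differentiated adipocyte, and the leptin receptor marks marrow stromal cells that can form both bone and fat. The TET enzymes, whose genes are the targets of the deletion, oxidise 5-methylcytosine, a base found mostly in CG pairs.

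The promoters of the 10 genes span the range from dense to absent CG pairs. Promoter windows from RefSeq (250 bases before to 50 after the start, GRCm38.p6) were given for 7 of the genes, and *Fabp4*, *Lpl* and *Cebpd* had none in the table. The windows are shown 5′ to 3′ with CG pairs in capitals for *Cebpa* (chr7:35119043-35119342, plus strand), for the upstream and the downstream start of *Pparg* (chr6:115360894-115361193 and chr6:115421816-115422115, plus strand) and for *Adipoq* (chr16:23146286-23146585, plus strand).
*Cebpa*: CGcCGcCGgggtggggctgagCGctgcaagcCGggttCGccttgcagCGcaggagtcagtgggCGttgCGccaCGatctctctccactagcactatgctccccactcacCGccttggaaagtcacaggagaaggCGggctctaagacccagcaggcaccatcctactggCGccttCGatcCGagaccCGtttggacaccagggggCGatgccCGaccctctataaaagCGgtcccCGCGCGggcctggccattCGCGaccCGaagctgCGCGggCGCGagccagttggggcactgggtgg
*Pparg* upstream: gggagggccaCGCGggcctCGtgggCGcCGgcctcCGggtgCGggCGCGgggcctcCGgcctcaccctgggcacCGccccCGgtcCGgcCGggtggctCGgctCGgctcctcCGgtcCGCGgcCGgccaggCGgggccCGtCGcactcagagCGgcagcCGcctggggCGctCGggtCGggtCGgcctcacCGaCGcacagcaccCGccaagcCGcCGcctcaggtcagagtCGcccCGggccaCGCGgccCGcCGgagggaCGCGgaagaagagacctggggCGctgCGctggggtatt
*Pparg* downstream: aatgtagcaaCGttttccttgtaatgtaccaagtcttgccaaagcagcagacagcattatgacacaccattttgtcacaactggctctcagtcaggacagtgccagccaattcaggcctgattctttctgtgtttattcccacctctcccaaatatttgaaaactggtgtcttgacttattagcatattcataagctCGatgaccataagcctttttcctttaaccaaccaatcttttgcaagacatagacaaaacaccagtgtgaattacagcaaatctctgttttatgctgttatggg
*Adipoq*: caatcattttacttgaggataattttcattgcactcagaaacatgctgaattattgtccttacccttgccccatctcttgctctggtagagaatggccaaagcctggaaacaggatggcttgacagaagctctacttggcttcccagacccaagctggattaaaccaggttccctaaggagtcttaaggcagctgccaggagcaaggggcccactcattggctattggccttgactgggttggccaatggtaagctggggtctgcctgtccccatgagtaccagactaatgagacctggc

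The window of *Cebpa* held 29 CG pairs and that of the upstream *Pparg* start 44, against a median of 7 over the 32851 promoters of the table. The downstream *Pparg* start, which gives the adipocyte form of the protein, held 2, and *Adipoq* held none. The region over the *Cebpa* window held 3099 counts in WT and 1524 in TCKO, and that over the upstream *Pparg* window 436 and 234, fewer despite its higher number of CG pairs. The downstream *Pparg* window met a region of 39 and 23 counts, and no region lay over the *Adipoq* window.

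Across the 183 regions, few lay past a ratio of 2, and more of these were lower than higher in TCKO. This tilt came from *Zfp423*, without which 6 of 108 regions were lower and 6 higher. At least 2-fold lower were 12 regions (6.56%), where 4.51% of all regions were, and at least 2-fold higher were 7 (3.83%), where 12.3% of all regions were. The lower regions lay at *Zfp423* (6), *Pparg* (2), *Cebpa*, *Cebpb*, *Fabp4* and *Lpl* (1 each), the higher ones at *Pparg* (3), *Fabp4* (2), *Cebpa* and *Zfp423* (1 each). *Cebpd*, *Plin1*, *Adipoq* and *Lepr* had none in either direction. The split depended on the scaling. The lower regions made up 63.2% of the member regions past the cutoff, and 26.9% in all regions. When depth was read from the peak caller's background level the share was 97.7% (42 lower, 1 higher), beside 83.4% in all regions, and with no scaling 98.3% (58 lower, 1 higher), beside 89.0%. After a loess fit it was 76.2% (16 lower, 5 higher), beside 35.8%. With the peak caller background 19.8% of all regions were lower and 3.93% higher. The paper, by its own 2-fold cutoff on peaks, reported more closing than opening regions in TCKO. Under the total count only 4 regions, in the windows of *Pparg*, *Cebpb*, *Lpl* and *Zfp423*, had an interval wholly below a 2-fold decrease, where 0.654% of all regions did. Wholly above a 2-fold increase were 2, at *Pparg* and *Fabp4*, where 3.82% of all regions were. Every counted region had a summit in at least 1 genotype, so a region could enter through the genotype where it was higher. Both regions wholly above the increase had a summit in TCKO only, and the intervals take no account of this entry. The median ratio of the 183 regions was -0.016, beside 0.064 for all regions. Below 0 lay 92 of them (50.3%), where 45.4% of all regions did.

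**Figure D1:**
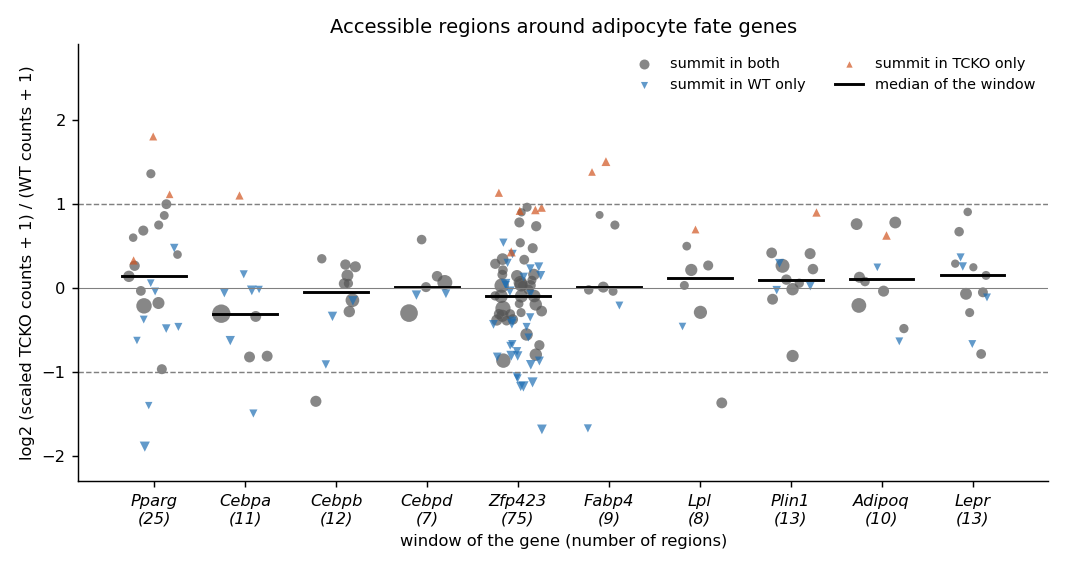
Log2 ratio of TCKO to WT counts (vertical axis) for each of the 183 regions, grouped by gene, with symbol size growing with the counts, symbol shape and colour for the peak calls, a bar at the median of each window and dashed lines at 2-fold. Most regions lie between the dashed lines, the 12 below are mostly summits called in WT only, and the lowest belongs to *Pparg* at -1.89.

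*Pparg* (ENSMUSG00000000440, chr6:115360951-115490399, plus strand), the master regulator of the adipocyte, held the most extreme ratios of the set in both directions, while its summed counts hardly differed. Over the 25 regions of its window, 3897 WT and 2384 TCKO counts gave a log2 ratio of 0.01 (-0.07 to 0.08). Its region at the upstream start, chr6:115360782-115362025, held 436 and 234 counts (-0.18, -0.41 to 0.05). The lowest ratio lay beyond the end of the gene at chr6:115499564-115500045, with 240 WT and 39 TCKO counts (-1.89, -2.39 to -1.42), and a summit was called there in WT only. The regions on either side of it held 1398 and 733 counts (-0.21, and -0.095 after loess) and 53 and 45 counts (0.47), so the low ratio was limited to 1 region. Within an intron a pair of regions 543 bp apart was higher in TCKO. Of these, chr6:115371835-115372098 held 61 and 96 counts (1.36, 0.91 to 1.83), and chr6:115372642-115372813 held 21 and 46 (1.80, 1.11 to 2.59), with a summit called in TCKO only. Further into the gene, the regions at chr6:115439692-115440042 (75 and 77 counts, 0.75), chr6:115440276-115440837 (110 and 134 counts, 0.995) and chr6:115453640-115454148 (137 and 134 counts, 0.68) were also higher, the middle one just under the 2-fold cutoff. An exonic region between them and the end of the gene, chr6:115462969-115463299, was lower with 197 and 61 counts (-0.97). Summed over the gene and the 2 kb before it, 19 regions gave 0.22 (0.12 to 0.32).

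At the downstream start (115422066), used for the adipocyte form of PPARγ, accessibility was weak in both genotypes. The nearest region, chr6:115421816-115421954, held 39 and 23 counts (-0.04, -0.78 to 0.69), and the next one before it, chr6:115421105-115421202, held 32 and 7 (-1.40, -2.63 to -0.33). The latter was past 2-fold under the total count but not after loess (-0.76) or with 10 counts added (-0.97). Neither had a summit in TCKO. Matches to the C/EBP consensus TTGCNNAA were found at both, and the promoter window of the downstream start held 2. The region before it is shown with its match in capitals (GRCm38, plus strand), beside the central 300 bases (chr6:115499655-115499954) of the region with the lowest ratio and the pair of higher regions, in which capitals mark CG pairs.
*Pparg* 115421105: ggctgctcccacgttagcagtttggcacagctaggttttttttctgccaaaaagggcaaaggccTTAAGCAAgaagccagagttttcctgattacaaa
*Pparg* 115499655: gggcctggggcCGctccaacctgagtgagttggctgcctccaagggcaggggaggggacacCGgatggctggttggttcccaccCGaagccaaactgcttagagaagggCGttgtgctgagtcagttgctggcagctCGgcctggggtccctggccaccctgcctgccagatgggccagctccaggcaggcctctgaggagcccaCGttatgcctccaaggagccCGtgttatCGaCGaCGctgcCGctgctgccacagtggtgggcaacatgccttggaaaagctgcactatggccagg
*Pparg* 115371835: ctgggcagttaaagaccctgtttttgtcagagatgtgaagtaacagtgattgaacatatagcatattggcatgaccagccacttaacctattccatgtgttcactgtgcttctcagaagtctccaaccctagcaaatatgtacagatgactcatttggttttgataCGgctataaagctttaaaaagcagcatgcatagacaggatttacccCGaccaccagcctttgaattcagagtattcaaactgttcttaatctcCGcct
*Pparg* 115372642: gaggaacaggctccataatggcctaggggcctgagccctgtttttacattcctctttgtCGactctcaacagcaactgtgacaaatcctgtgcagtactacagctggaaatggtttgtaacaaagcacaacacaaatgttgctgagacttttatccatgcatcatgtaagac
The low stretch after the gene held 11 CG pairs and 64.7% GC, and the higher regions held 3 and 1 CG pairs with 41.3% and 44.8% GC. The low stretch also held 1 match to the bZIP consensus TGANTCA, as did the longer of the higher regions.

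*Cebpa* (ENSMUSG00000034957, chr7:35119293-35121928, plus strand), which sustains *Pparg* expression in the differentiated adipocyte, had the lowest summed ratio of the 10 loci. Its 11 regions held 4478 WT and 2140 TCKO counts, a log2 ratio of -0.35 (-0.42 to -0.27). Of the 11, 9 lay below 0, where 45.4% of all regions did. The region at its start, chr7:35118144-35119678, held 69.2% of the WT counts and had 3099 and 1524 counts (-0.31, -0.39 to -0.22, and -0.12 after loess). Lower ratios stood at distance on both sides. Before the gene, chr7:35098747-35099192 held 303 and 104 counts (-0.82), and after it chr7:35138033-35138541 held 301 and 104 (-0.81) and chr7:35134793-35134943 held 62 and 13 (-1.49, -2.39 to -0.69). The exception past the cutoff was chr7:35127531-35127704, with 34 and 45 counts (1.10, 0.48 to 1.76, and 0.88 after loess), which lay between a region of 277 and 133 counts (-0.34) and one of 67 and 39 (-0.06). Without the start region the locus stood at -0.45 (-0.58 to -0.31).

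*Cebpb* (ENSMUSG00000056501, chr2:167688915-167690418, plus strand), the early factor, had its lowest ratio at 1 distal region. Its 12 regions held 3045 and 1690 counts, -0.13 (-0.22 to -0.05). The start region, chr2:167688624-167689297, had 792 and 435 counts (-0.15, -0.32 to 0.02), an interval that included 0. At chr2:167713392-167713922, 24.7 kb after the start, counts were 366 and 87, a ratio of -1.35 (-1.69 to -1.02), and summits were called in both genotypes with a fold over local background of 8.16 in WT and 3.75 in TCKO. Of its 12 regions, the 8 at and before its start lay inside the annotated span of *Tmem189*, so that they cannot be assigned to *Cebpb* by position.

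*Cebpd* (ENSMUSG00000071637, chr16:15887286-15891031, plus strand), the partner of *Cebpb* in the early phase, differed at its start region. This region, chr16:15886623-15888199, held 2573 and 1271 counts (-0.30, -0.40 to -0.20), and was at -0.13 after loess. The median of all regions within 1 kb of a start was -0.07. The 7 regions together held 4383 and 2443 and gave -0.13 (-0.20 to -0.06), and without the start region the sum turned to 0.09 (-0.02 to 0.20), while after loess the whole locus stood at -0.023. The only other strong region of the window, chr16:15862432-15863660 with 1131 and 719 counts (0.06), is the start of the neighbour *Mzt2*.

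*Zfp423* (ENSMUSG00000045333, chr8:87661810-87959595, minus strand), the preadipocyte commitment factor, held 75 of the 183 regions and 6 of the 12 that were at least 2-fold lower. Over its 75 regions 16584 counts in WT and 8977 in TCKO gave -0.17 (-0.21 to -0.13). Below 0 lay 42 regions (56.0%), where 50.3% of the 183 and 45.4% of all regions did. Of its regions 8.0% were at least 2-fold lower and 1.33% higher. Of the 108 regions of the other members 5.56% were lower and 5.56% higher. All 6 lay in introns and none at a start, but only 3 of the 75 regions lay within 1 kb of a start. In the gene and the 2 kb before it lay 65. A stretch of 4.04 kb held 3 of them with no other region between, at 236.4 to 240.1 kb from the first start, and its summed counts were 638 and 158 (-1.29). These regions were chr8:87719314-87719710 (242 and 65 counts, -1.17, -1.57 to -0.79), chr8:87721491-87721720 (187 and 35, -1.68, -2.22 to -1.18) and chr8:87723024-87723348 (209 and 58, -1.12, -1.55 to -0.71). Each had a summit in WT only. On the outer sides of the stretch, the neighbouring regions had ratios of 0.34 and 0.47. The stretch was singled out after its values were seen, and its regions are shown whole or by their central 300 bases (GRCm38, plus strand, chr8:87719362-87719661, chr8:87721491-87721720 and chr8:87723036-87723335) with CG pairs in capitals.
*Zfp423* 87719362: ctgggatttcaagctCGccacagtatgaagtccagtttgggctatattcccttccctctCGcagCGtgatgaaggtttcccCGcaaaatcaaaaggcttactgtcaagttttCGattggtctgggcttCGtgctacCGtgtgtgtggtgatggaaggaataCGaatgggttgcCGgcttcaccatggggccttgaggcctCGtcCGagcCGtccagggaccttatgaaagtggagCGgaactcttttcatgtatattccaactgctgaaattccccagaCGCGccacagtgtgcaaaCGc
*Zfp423* 87721491: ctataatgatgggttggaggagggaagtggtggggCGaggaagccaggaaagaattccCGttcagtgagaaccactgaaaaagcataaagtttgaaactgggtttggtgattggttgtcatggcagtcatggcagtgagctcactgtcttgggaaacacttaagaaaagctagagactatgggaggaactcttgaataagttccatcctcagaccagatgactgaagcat
*Zfp423* 87723036: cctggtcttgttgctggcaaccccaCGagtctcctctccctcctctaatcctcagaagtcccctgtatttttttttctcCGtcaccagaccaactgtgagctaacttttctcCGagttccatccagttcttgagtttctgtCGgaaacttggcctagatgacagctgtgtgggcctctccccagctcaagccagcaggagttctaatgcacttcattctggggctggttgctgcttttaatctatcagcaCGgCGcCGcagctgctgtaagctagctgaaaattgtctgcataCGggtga
They held 16, 2 and 8 CG pairs, so the region with the lowest ratio of the stretch was the one with the fewest, and none of the 6 consensus sequences searched was found in them.

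The starts of *Zfp423* differed from each other. At the first start (87959595) the region chr8:87958789-87959232 held 321 and 218 counts (0.16), and the next one before the gene held 531 and 302 (-0.10). At the internal start (87804439) the region chr8:87803268-87805062 held 1178 and 393, a ratio of -0.87 (-1.03 to -0.70). This was the second largest region of the locus by counts, after an intronic one at chr8:87701770-87703336 with 1305 and 670 (-0.24, -0.38 to -0.11). In the region at the internal start a summit was called in both genotypes, with a fold over local background of 4.60 in WT and 3.97 in TCKO. The remaining 3 lower regions, chr8:87790816-87790957 (67 and 19 counts, -1.08), chr8:87833882-87834219 (131 and 35, -1.17) and chr8:87851511-87851677 (83 and 24, -1.05), were spread over the gene, and with 10 counts added the first was at -0.90 and the last at -0.91, inside the cutoff. The single higher one, chr8:87849047-87849245 with 34 and 46 counts (1.13, 0.52 to 1.79, and 0.91 after loess), lay 2265 bp from a lower one.

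**Figure D2:**
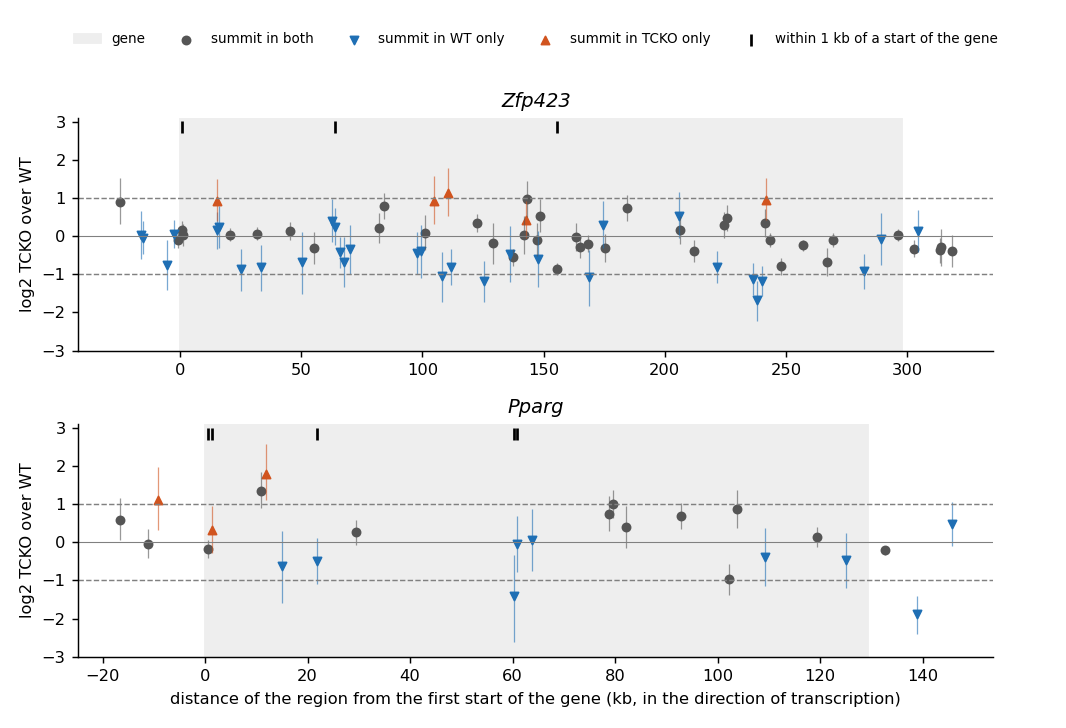
Log2 ratio of each region of *Zfp423* (top) and *Pparg* (bottom) against its distance in kb from the first start of the gene, with vertical lines for the 95% counting intervals, shading over the gene, ticks for regions within 1 kb of a start and dashed lines at 2-fold. In *Zfp423* 3 neighbouring regions at 236.4 to 240.1 kb lie below the lower line, and in *Pparg* the higher pair at 11 and 11.8 kb and the low region at 138.9 kb stand apart.

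*Fabp4* (ENSMUSG00000062515, chr3:10204088-10208576, minus strand), the fatty acid carrier of adipocytes and a PPARγ target, was weakly accessible and varied from region to region. Its 9 regions held 748 counts in WT and 543 in TCKO, the smallest sum of the 10 loci, with a ratio of 0.26 (0.10 to 0.41). The start region, chr3:10208536-10208782, held 117 and 70 counts (-0.02, -0.45 to 0.40), and the largest one, chr3:10213292-10214064 at 5.1 kb before the gene, 263 and 161 (0.01, -0.27 to 0.29). Neither differed detectably at this depth. Between them chr3:10211895-10212084 held 47 and 82 counts (1.501, 1.01 to 2.04) with a summit in TCKO only, and behind them chr3:10216588-10216753 held 65 and 12 (-1.67, -2.60 to -0.85) with a summit in WT only. A weak region at 19.6 kb before the gene, with 19 and 31 counts, was at 1.38. The higher ratio of the locus also drew on the regions after the gene, which lie at or within *Pmp2* and *Gm37389* (ratios of 0.87, 0.75 and -0.04), and summed over the gene and the 2 kb before it, which leaves only the start region, the locus was at -0.02. The higher region nearest to the gene held a C/EBP match, in capitals (chr3:10211895-10212084, GRCm38, plus strand).
*Fabp4* 10211895: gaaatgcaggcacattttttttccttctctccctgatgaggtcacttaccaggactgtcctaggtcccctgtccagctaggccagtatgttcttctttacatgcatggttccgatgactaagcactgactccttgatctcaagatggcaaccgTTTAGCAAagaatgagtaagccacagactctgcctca

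*Lpl* (ENSMUSG00000015568, chr8:68880491-68907448, plus strand), whose product releases fatty acids from lipoproteins, was lower at its start and at 1 distal region. Its 8 regions held 1798 and 979 counts (-0.16, -0.27 to -0.05). The region over its start, chr8:68880453-68882011, held 690 and 343 (-0.29, -0.48 to -0.10). At chr8:68923816-68924368, 43.6 kb after the start and beyond the gene, counts were 324 and 76 (-1.37, -1.73 to -1.02). This was among the best defined sites of the set, with a summit in both genotypes and a fold over local background of 11.8 in WT and 5.67 in TCKO. The next regions on either side were at 0.03 and 0.50.

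*Plin1* and *Adipoq*, a lipid droplet coat protein and the adipocyte hormone adiponectin, had no region past 2-fold. *Plin1* (ENSMUSG00000030546, chr7:79720218-79732903, minus strand) held 3219 and 2048 counts over 13 regions (0.06, -0.02 to 0.15). No region lay within 1 kb of its first start (79732903), and that with most counts near another of its starts, chr7:79729263-79729534, held 195 and 127 (0.10, -0.22 to 0.42). Its largest region, with 772 and 563 counts (0.26), is the start of *Kif7*. *Adipoq* (ENSMUSG00000022878, chr16:23146536-23158028, plus strand) held 2636 and 1769 counts over 10 regions, a ratio of 0.14 (0.06 to 0.23), and had no region within 1 kb of its starts in either genotype. Its largest region, chr16:23127485-23128369 with 1144 and 602 counts (-0.21), is the start of *Rfc4*, and without it the locus was at 0.36 (0.25 to 0.47). This rested on chr16:23136571-23137306, 9.6 kb before the start, with 298 and 311 counts (0.78, 0.55 to 1.01), and on chr16:23159775-23160275, after the gene, with 297 and 306 (0.76, 0.53 to 0.99). The region closest to the start, at 1.9 kb before it, held 120 and 52 (-0.48).

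*Lepr* (ENSMUSG00000057722, chr4:101717404-101815352, plus strand), the leptin receptor, had a locus ratio whose interval included 0. Its 13 regions held 1327 and 819 counts (0.02, -0.11 to 0.15), with 8.8 regions per 100 kb, the sparsest of the 10 windows. The region at its start held 55 and 40 counts (0.25, -0.33 to 0.84), and the largest, chr4:101719134-101719853 in an intron, 392 and 227 (-0.07, -0.31 to 0.17). Before the gene a lower region of 168 and 59 counts (-0.79) lay between others of 100 and 97 (0.67) and of 47 and 54 (0.90).

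Ordered by their summed ratio, the loci ran from *Cebpa* (-0.35) over *Zfp423* (-0.17), *Lpl* (-0.16), *Cebpb* (-0.13), *Cebpd* (-0.13), *Pparg* (0.01), *Lepr* (0.02), *Plin1* (0.06) and *Adipoq* (0.14) to *Fabp4* (0.26). The intervals of neighbours in this order overlapped except for *Cebpa* and *Zfp423*. Intervals lay below 0 for the first 5 loci and above 0 for *Adipoq* and *Fabp4*. The first 5 stayed below 0 under each of the 7 scalings tried, while *Adipoq* and *Fabp4* turned to -0.47 and -0.35 with the peak caller background and to -0.58 and -0.46 with no scaling. After loess *Fabp4* was at 0.13. The peak caller background moved the median of all regions from 0.064 to -0.53. None of the 10 loci was 1.5-fold lower or higher, where 0.553% and 4.66% of the 19896 protein-coding loci with regions were. The median of the 10 was -0.059, beside -0.020 for all these loci.

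**Figure D3:**
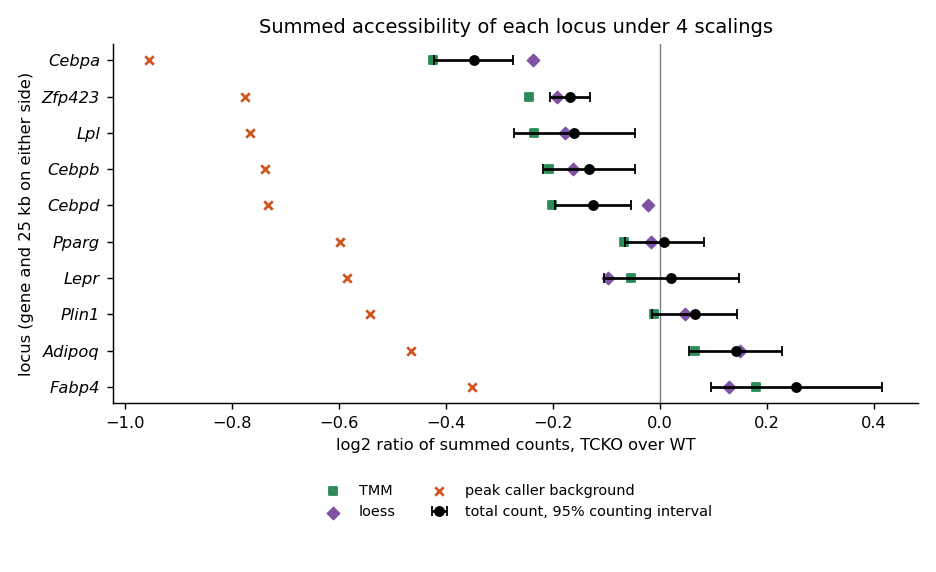
Log2 ratio of the summed counts of each locus (horizontal axis) after scaling by total counts (circles with 95% counting intervals) and under 3 other scalings. *Cebpa* is lowest and *Fabp4* highest under the total count, at -0.35 and 0.26, and with the peak caller background all 10 lie below 0.

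Levels at the starts were compared per kb of region, in the region with most counts within 1 kb of a start. *Cebpa* stood highest with 2020 WT and 1630 scaled TCKO counts per kb, followed by *Cebpd* (1630 and 1330) and *Cebpb* (1180 and 1060). Over all protein-coding genes, those without such a region ranked lowest, these WT levels were at percentiles 90.6, 84.0 and 71.0. The effector genes and the receptor were lower, from 443 for *Lpl* to 717 for *Plin1* in WT, and *Pparg* was lowest with 350 and 309, at percentile 35.9 in WT. In proportion to its level the *Zfp423* region differed most between the genotypes, with 656 and 360 counts per kb. It lay at the internal start, and the region at the first *Zfp423* start, with 321 and 218 counts, was not lower (0.16). The *Plin1* region also lay at a start other than the first. The gap in counts per kb was widest at *Cebpa*. Of the 10 genes 9 had a start region, and of all 21924 protein-coding genes 71.6% did. Regions within 1 kb of any start had a median ratio of -0.07, with 60.5% below 0, and those away from starts 0.093. The 18 regions at the members' own starts had a median of -0.034.

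**Figure D4:**
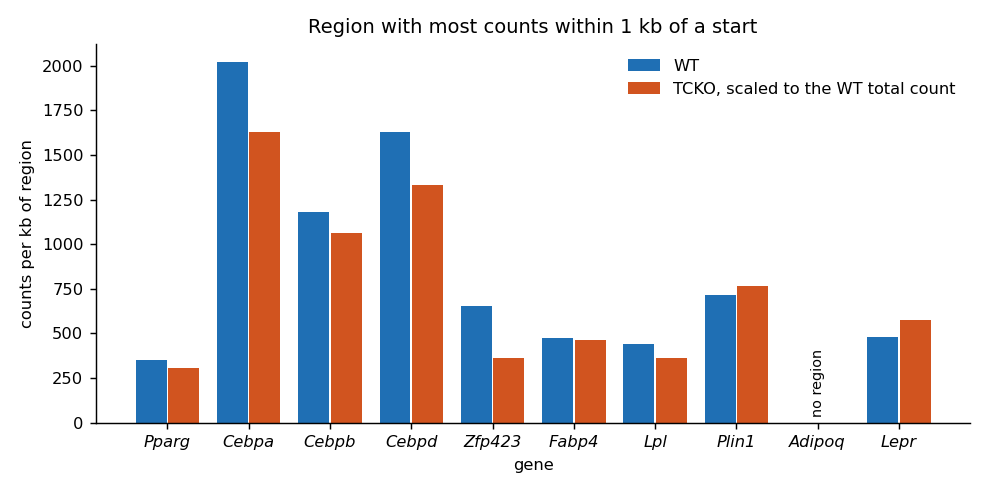
Counts per kb (vertical axis, from 0) in the region with most counts within 1 kb of a start of each gene, for WT and for TCKO scaled to the WT total count, 1 merged library each and so without error bars. The 3 C/EBP genes stand highest, *Zfp423*, shown by its internal start, differs most in proportion to its level (656 and 360), and *Adipoq* had no such region.

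Peak calls gave a readout relative to each library's own background. Calls and folds still depend on depth. The counts in regions were lower in TCKO, while the peak caller's background was 1.98 reads in WT and 1.91 in TCKO. The part of depth was not tested. The calls also set which regions were counted, so they are no independent support for the ratios. Of the 183 regions 106 had a summit in both genotypes, 63 (34.4%) in WT only, where 33.0% of all regions had, and 14 (7.65%) in TCKO only, where 10.2% had. Of the 12 regions at least 2-fold lower, 10 (83.3%) had a summit in WT only, close to the 82.3% of all lower regions, and of the 7 higher ones 6 had one in TCKO only, where 63.6% of all higher regions did. At the 106 shared summits the fold over local background was lower in TCKO at 84 (79.2%), beside 69.7% of the 145301 shared by all regions. The median log2 difference of this fold was -0.22, beside -0.19. At *Cebpa* all 4 shared summits were lower in TCKO and at *Zfp423* 33 of 39, with medians of -0.37 and -0.29. At *Lepr* it was 5 of 9, with a median of -0.038.

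The regions past 2-fold differed in CG content. The 12 lower ones had a median of 1.90 CG pairs per 100 bp and the 7 higher ones 0.58, with 1.3 and 0.68 in the lower and higher regions of the whole table. Of the 71 member regions with under 1 CG pair per 100 bp, 4 were at least 2-fold lower (5.63%) and 5 higher. Of the 77 with 1 to 3 pairs, 6 were lower (7.79%) and 2 higher, and of the 35 with at least 3, 2 were lower (5.71%) and none higher, so the share of lower regions did not follow the CG density. Among all regions, the shares in this order were 3.44%, 6.13% and 3.36% lower, and 17.8%, 8.42% and 2.76% higher. Counts also differed between these classes, with a median of 159 WT counts in the lower and 34 in the higher member regions, and the part of depth was not tested.

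The central 200 bp of each region was searched for consensus sequences, on either strand. In regions shorter than that the window reaches past both ends, so a match can lie beside the region, as the C/EBP match at *Cebpa* chr7:35134793-35134943 did. The C/EBP consensus TTGCNNAA was found at 17 of the 183 regions (9.29%), beside 8.81% of all regions. Of the 17, 8 had a ratio below 0, where 50.3% of the 183 and 45.4% of all regions did. The bZIP consensus TGANTCA, bound by AP-1 factors, lay in 43 (23.5%), beside 23.6%. Member regions with it had a median ratio of 0.15 and those without it -0.039, and over all regions these medians were 0.42 and -0.019. The Runt consensus TGTGGTT, read by the osteoblast factor RUNX2, lay in 17 regions (9.29%, beside 8.72%), with a median ratio of 0.26 where that over all regions with it was 0.062. The TEAD consensus GGAATG lay in 25 (13.7%, beside 16.3%), 16 of them below 0, with a median of -0.29 where that over all regions with it was 0.11. No member region held the PPAR:RXR direct repeat (2 copies of AGGNCA with 1 base between) or the EBF palindrome (TCCC and GGGA with 2 bases between), which lay in 0.253% and 0.696% of all regions. None of these shares says whether a factor was bound.

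Other genes of the adipocyte programme were described by their loci, from 5 lists with 53 genes in all. Of these, 27 lay below the median of all loci and 26 above. At least 1.5-fold lower was 1 (1.89%) and higher 1 (1.89%), where 0.553% and 4.66% of all loci were. Among the adipogenic factors 10 of 14 lay below it, with *Rxra*, the partner of PPARγ, at -0.40 and *Klf15* at -0.38 as the lowest and *Klf4* (0.02) and *Stat5a* (0.05) as the highest. Among the inhibitors of adipogenesis 6 of 10 did, with *Klf2* at -0.72 (7408 and 2732 counts) and *Nr2f2* at -0.23, while *Gata2*, which holds preadipocytes back, was at 0.44 and *Sirt1* at 0.12. The lipid genes were evenly divided, 8 of 16 on either side, from *Acsl1* (-0.20) and *Dgat2* (-0.18) to *Plin2* (0.33) and the fatty acid receptor gene *Cd36* (0.35). Of the 5 adipokines 4 lay above the median, with *Lep*, the ligand of the leptin receptor, at 0.32 and *Rbp4* at 0.08, and *Angptl4* (-0.04) and *Cfd* (0.05) as the lowest. Of 8 genes shared with marrow stromal cells that carry *Lepr*, 6 lay above it, with the BMP antagonist gene *Grem1* at 0.73 (1557 and 1571 counts) and *Cxcl12* at 0.21, and *Pdgfra* (-0.07) and *Pdgfrb* (-0.06) as the lowest. Several of these directions turned with the window: over the gene and the 2 kb before it *Lep* was at -0.36, *Stat5a* at -0.21, *Cxcl12* at -0.015 and *Angptl4* at 0.14. With the peak caller background *Gata2*, *Sirt1*, *Plin2*, *Cd36*, *Lep*, *Rbp4* and *Cxcl12* also lay below 0, while *Grem1* was at 0.12.

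The windows of other mesenchymal fates were read in the same way. Of 194 regions around 8 osteoblast genes 6.70% were at least 2-fold lower and 5.15% higher, close to the 6.56% and 3.83% of the adipocyte fate genes. The 313 regions of 8 chondrocyte genes had 6.71% and 10.2%. The 88 regions of 8 skeletal muscle genes had none lower and 11.4% higher. Median ratios were -0.070, -0.0030 and 0.15 in this order, beside -0.016 for the adipocyte fate genes. The differences between these sets were not tested.

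**Figure D5:**
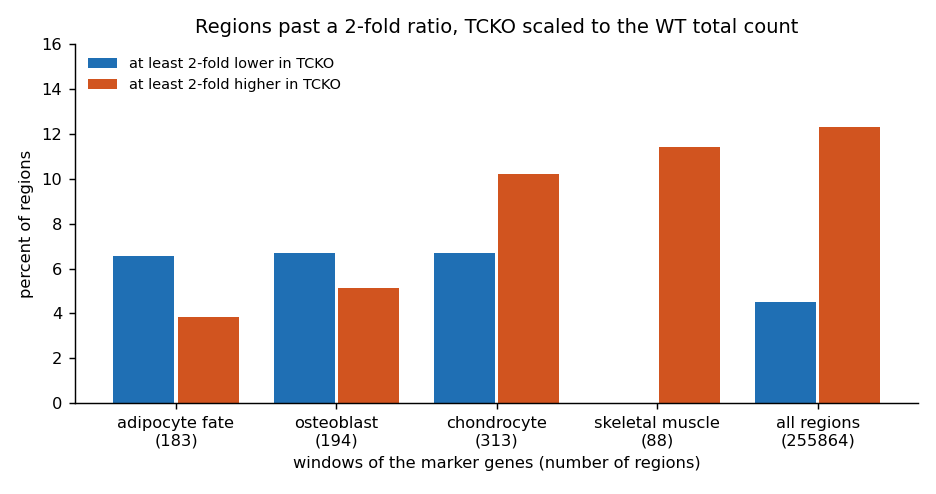
Percent of regions at least 2-fold lower (left bars) or higher (right bars) in TCKO, in the windows of adipocyte fate, osteoblast, chondrocyte and skeletal muscle genes and in all regions, with the number of regions under each name. The adipocyte fate bars, 6.56% and 3.83%, resemble those of osteoblast genes, and all regions have 4.51% and 12.3%.

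Markers were used to see which cells the libraries could hold. All 8 osteoblast genes had a region within 1 kb of a start, as did 6 of 8 chondrocyte genes and 2 of 8 skeletal muscle genes. Of 8 genes of the mature adipocyte 5 did (62.5%), beside 71.6% of all protein-coding genes, with *Adipoq*, *Cidec* and *Cfd* without one. The summed loci of these adipocyte genes, 4 of which are members, held 25608 counts in WT and 26295 scaled counts in TCKO, and 6 of the 8 lay above the median of all loci. Loci of endothelial genes were higher in TCKO at 5 of 5 (0.21 to 0.62 under the total count, 11083 counts in WT and 13822 scaled counts in TCKO). Of the 19896 loci with regions 10847 lay below 0. The loci of the 8 skeletal muscle genes also all lay above 0 (0.035 to 0.483), and from -0.573 to -0.124 with the peak caller background. With the peak caller background *Pecam1* (-0.395), *Cdh5* (-0.263), *Kdr* (-0.244) and *Tek* (-0.307) lay below 0, and *Emcn* was at 0.014. Loci of macrophage or osteoclast genes lay above the median at 4 of 6 (-0.21 to 0.24, 22438 and 23229), and *Ptprc*, *Mpeg1* and the endothelial gene *Emcn* had no start region. At the start regions the ratios were higher than over the loci for *Csf1r* (0.999, 0.61 to 1.41), *Cd68* (0.42), *Pecam1* (0.97, 0.69 to 1.26), *Cdh5* (1.08, 0.60 to 1.59) and *Kdr* (0.51), while *Adgre1* was at -0.059 and *Tek* at -0.35. The median start level per kb was 530 in WT and 784 in TCKO for the macrophage or osteoclast genes and 358 and 638 for the endothelial genes. The part of these cells in the values of the adipocyte fate genes was not tested.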

How the data were processed

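ATAC-seq libraries of primary osteoblasts, 2 WT and 2 TCKO samples per the labels, were used. According to the methods, the authors aligned reads with STAR 2.7.0e to GRCm38, kept uniquely mapping reads, merged the replicates of a genotype and called peaks with MACS2. Duplicate removal and a shift for the transposase were not given in the sources used here. The authors deposited raw read counts per region, 1 merged column per genotype, and peak lists with a fold enrichment at each summit (a ratio to nearby background reads) with its p-value and q-value as −log10.

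The counts in regions, 56898657 in WT and 34608167 in TCKO, set the precision. With merged columns the planned edgeR test was impossible, and no p-value is given. A region counted at a start when its midpoint lay within 1 kb of a protein-coding transcript start. A locus is the sum over all regions of a gene's window, 25 kb on either side included. Alternatives were TMM (edgeR 4.0.16), DESeq2 1.42.0 size factors, no scaling, a depth from the peak caller's background (1.98 reads in WT, 1.91 in TCKO), loess (span 0.3), medians in 20 GC bins removed, 10 counts added, at least 50 counts, other windows, folds of 1.5 and 3 and stricter q-values. Named were all members, in each window the region with most counts, the start region with most counts and every region past 2-fold with at least 100 counts, and of each other list the 2 lowest and 2 highest loci with at least 200 counts. Further regions are given because their window is described region by region, and were chosen after their values were seen. The members, gene lists and alternatives were chosen with earlier results of these data known. The steps were tested on simulated data. Python 3.11.15, pandas 2.3.3, statsmodels 0.14.6 and R 4.3.3 were used.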

Additional observations from a re-analysis of the deposited data

How the results depend on the processing

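No paired analysis was possible because replicates had been merged into 1 column per genotype before deposit, which also leaves no edgeR or DESeq2 test and no replicate to leave out. The factor set how many regions were lower. With TMM and DESeq2 size factors the counts of lower and higher regions moved by at most 1, the median became -0.091 and -0.081, and 8 of the 10 loci lay below 0 in place of 5. With the peak caller background 42 regions were lower, 1 was higher, the median was -0.60, all 10 loci lay below 0 (*Adipoq* -0.47, *Fabp4* -0.35), and 33 programme loci were at least 1.5-fold lower and 0 higher. With no scaling these values were 58, 1, -0.71, 10 (*Adipoq* -0.58, *Fabp4* -0.46), 46 and 0. A factor shifts all regions alike by construction. After loess the median was -0.085.

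With the gene and the 2 kb before it, 7 regions were lower and 3 higher, 8 loci lay below 0 (*Adipoq* -0.16, *Fabp4* -0.024) and 3 programme loci were 1.5-fold higher. Within 1 kb of its starts *Fabp4* was at -0.024, and *Cebpd* without its largest region at 0.090. At a fold of 1.5, 34 regions were lower and 28 higher, at a fold of 3, 3 and 1, and with intervals wholly past 2-fold, 4 and 2. With 10 counts added 4 were higher. Without *Zfp423* 6 lower and 6 higher regions were left, and without *Pparg* 4 higher ones. Summits in both genotypes numbered 66 with −log10 q from 5 upwards and 35 from 10, in WT only 41 from 10, and in TCKO only 7 and 3. Of the remaining comparisons with an alternative, 44 counts and medians and 54 values of single loci stayed close to the value reported (within 1.5 times a count, within the interval of a locus), and 37 values of single loci moved further, among them loci whose interval included 0 (*Pparg*, *Lepr* and *Plin1* lay below 0 with the peak caller background). Depth limits the weaker regions: 53 and 45 counts after *Pparg* left an interval of -0.09 to 1.05.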
